A study of Mus musculus with 12 samples.

Results

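Macrophage cytokines fall into those that drive inflammation and those that restrain it, and 9 such genes were followed here in a mouse macrophage line given estradiol and in macrophages of pregnant mice. The 9 were Tnf, Il1a, Il1b, Il6, Il12b and Il18 on the inflammatory side and Il1rn, Il10 and Tgfb1 on the restraining side. A probe set of the array was counted as a member when the platform annotation paired it with exactly 1 gene symbol and that symbol was one of the 9. This gave 12 probe sets of 20380 that name a single gene, or 9 genes of 12393. Il1rn had 3 probe sets, Il12b had 2 and each other gene had 1. Where a gene had several, the brightest on average stood for it, and the others are given beside it.

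The study measured total RNA from 12 mouse samples on Affymetrix expression arrays, with 3 arrays in each of 4 groups. Estradiol samples were RAW264.7 cells, a macrophage-like line from a tumour of a male mouse, cultured overnight with the steroid at 1 ug/mL, and Unstimulated samples were the same line without it. Pregnant and Control samples were cells washed from the airways by bronchoalveolar lavage, labelled as macrophages, of pregnant mice and of control mice. Strain, age, stage of pregnancy, sex of the control mice and any sorting of the washed cells are not given in the labels. By the study's design text the lavage cells were not cultured and the untreated line received vehicle. The labels call that line unstimulated and attach the same estradiol and culture text to every sample, lavage included. Arrays were therefore grouped by the group label, and the estradiol text was taken to hold for the Estradiol group only. Replicates were numbered in deposit order, and nothing says whether they were separate cultures, animals or pools, so the p-values measure the spread between these samples only. In cells from a lavage, fewer cells of a type and less RNA per cell cannot be told apart.

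Array medians lay between an intensity of 369.3 and 392.6, and arrays of a group correlated at 0.994 to 0.999 (Pearson, log2 values across single-gene probe sets). Of 9 measured pan-macrophage markers, 8 lay above the 40th percentile on all arrays of every group. Of 8 alveolar macrophage markers, 8 did so in Pregnant and in Control lavage, against 3 in Estradiol and 3 in Unstimulated RAW264.7 cells. Estradiol replicate 2 had the largest difference between 3' and 5' actin probe sets (0.74, log2), a sign of shorter or less complete RNA copies, with 0.39 to 0.48 on the rest of the cell-line arrays. Among lavage arrays Pregnant replicate 2 had the largest (0.39, against 0.26 to 0.35).

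TNF and the interleukin-1 proteins are made by macrophages within hours of a danger signal, largely through the transcription factor NF-kB, and act on nearby cells through their own receptors. Il1b and Il18 are made as inactive precursors that are cut by caspase-1 inside an assembly called the inflammasome, so their mRNA is only the first of several control steps. Il1rn encodes the antagonist that occupies the interleukin-1 receptor without signalling, Il10 encodes a cytokine that shuts down inflammatory genes, and Tgfb1 encodes a growth factor that is secreted in a latent form and tunes alveolar macrophage development. Il6 and Il12b are typically induced later, after microbial stimulation.

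Start-site sequences are shown for the pair of genes that rose with estradiol, Il1b and Tnf, for Il1a, which lies next to Il1b, and for Il6, a classic NF-kB gene that was near the lowest intensities here. Each is a window of 300 bases, from 250 before to 50 after the gene's start, taken from RefSeq on build GRCm38.p6, and 8 of the 9 genes had such a window. They are chr2:129371090-129371389 on the minus strand for Il1b, chr2:129309923-129310222 on the minus strand for Il1a, chr17:35201958-35202257 on the minus strand for Tnf and chr5:30012864-30013163 on the plus strand for Il6. Il1a and Il1b have no protein-coding gene between them in that annotation. Sequences run 5′ to 3′ along the gene, and capitals mark matches on either strand to GGG and CC with 5 bases between (a loose form of the NF-kB motif), TGANTCA (AP-1), TTGCNNAA (C/EBP) and TATAAA (the TATA box).
Il1b: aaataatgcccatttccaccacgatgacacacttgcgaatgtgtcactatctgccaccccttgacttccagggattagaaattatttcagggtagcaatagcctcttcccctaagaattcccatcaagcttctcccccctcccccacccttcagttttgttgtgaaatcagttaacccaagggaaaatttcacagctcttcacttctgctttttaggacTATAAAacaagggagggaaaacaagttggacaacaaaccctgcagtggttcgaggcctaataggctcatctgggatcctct
Il1a: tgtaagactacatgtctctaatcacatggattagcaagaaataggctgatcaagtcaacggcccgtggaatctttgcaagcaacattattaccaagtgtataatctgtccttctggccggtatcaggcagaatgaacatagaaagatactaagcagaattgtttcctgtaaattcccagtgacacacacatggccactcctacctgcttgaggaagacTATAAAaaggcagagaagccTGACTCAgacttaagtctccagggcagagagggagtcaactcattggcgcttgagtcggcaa
Tnf: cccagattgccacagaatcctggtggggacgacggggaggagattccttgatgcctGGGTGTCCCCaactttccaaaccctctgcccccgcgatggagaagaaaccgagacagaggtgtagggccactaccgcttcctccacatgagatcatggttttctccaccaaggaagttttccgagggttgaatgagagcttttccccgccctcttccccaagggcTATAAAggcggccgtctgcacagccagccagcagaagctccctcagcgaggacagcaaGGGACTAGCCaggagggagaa
Il6: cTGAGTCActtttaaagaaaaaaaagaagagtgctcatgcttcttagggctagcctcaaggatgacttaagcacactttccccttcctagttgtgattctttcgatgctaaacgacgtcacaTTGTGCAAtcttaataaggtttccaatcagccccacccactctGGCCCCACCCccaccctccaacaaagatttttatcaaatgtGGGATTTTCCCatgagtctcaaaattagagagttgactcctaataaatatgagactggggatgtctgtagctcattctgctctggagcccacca
Il1b, Il1a and Tnf each held TATAAA close before the start (from base -31, -32 and -29), a motif found in 13.6% of all such windows. Tnf held 2 matches to the NF-kB pattern, which 50.8% of windows hold. Il6 held 3 matches to it, of which one pair overlapped, together with an AP-1 match (7.8% of windows) and a C/EBP match (10.8%). Il1b held none of these other than TATAAA. A match describes the letters only.

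Values below are log2(intensity + 1), where 1 unit is a doubling, and they compare arrays for 1 probe set, not one gene with another. As a gauge of dim signal each probe set was ranked among the 20380 single-gene probe sets of its array. Genes above that array's 40th percentile on under 3 arrays of a comparison are called dim. Il6 lay nearest the bottom, at percentiles 0.353 to 0.898 on Estradiol, 0.118 to 0.792 on Unstimulated, 2.15 to 6.66 on Pregnant and 1.13 to 13.8 on Control arrays. Il10 lay at percentiles 2.12 to 9.08 over the 12 arrays. Il1a was near the bottom in the cell line, at 9.36 to 12.7 on Estradiol and 4.28 to 9.01 on Unstimulated arrays, and in the middle of the range in lavage, at 56.3 to 63.5 on Pregnant and 53.9 to 60.5 on Control arrays. Il12b stayed below the 40th percentile on all 12 arrays with both of its probe sets. Fold changes of such dim genes are understated on this scale. Il1rn, Tgfb1, Tnf and Il18 lay above the 40th percentile on all 12 arrays, and Il1b did so on all arrays but those of Unstimulated cells.

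**Figure D1:**
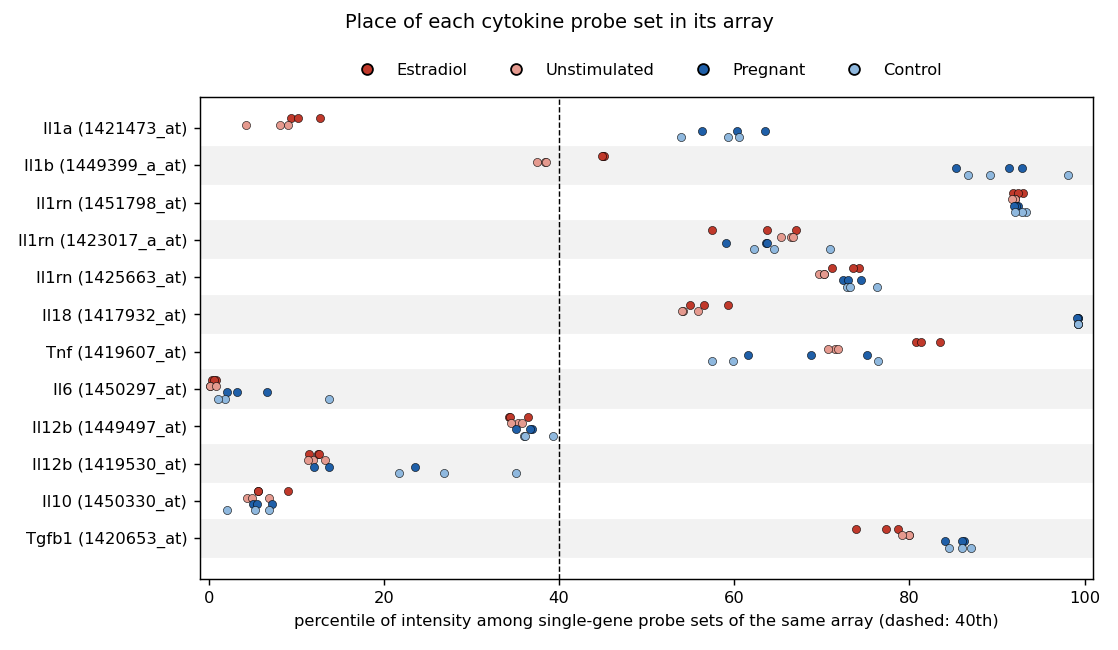
Percentile of each of the 12 cytokine probe sets among the single-gene probe sets of its own array (x axis), 1 point per array, coloured by group, with the 40th percentile dashed. Il6 and Il10 sit at the left in every group, Il1a sits at the left in Estradiol and Unstimulated cells only, and Il18 sits at 99.1 to 99.3 on the 6 lavage arrays.

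In RAW264.7 cells, estradiol samples had more Il1b and Tnf mRNA than unstimulated ones, and no other of the 9 genes passed the test. Il1b was 2.11-fold and Tnf 1.72-fold higher. Thus 2 of 9 genes rose and 0 fell at a limma adjusted p under 0.05 over all 12393 genes, against 6.75% of all genes called higher, 4.66% called lower and 11.4% called in either direction. The median difference of the 9 genes was 0.13, against 0.02 over all genes. With so few genes the count is a description only.

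Il1b, the precursor of the main fever-inducing interleukin, was at 8.06, 7.99 and 7.99 in Estradiol samples, against 6.99, 6.99 and 6.83 in Unstimulated samples. All 3 treated samples lay above all 3 untreated ones, and the means were 8.02 ± 0.04 and 6.94 ± 0.09 (SD, n = 3 each). The difference was 1.08 ± 0.06 (SE, limma adjusted p = 0.000183), and in intensity the arrays read 253.8 to 266.3 against 113.1 to 126.2. The rise took Il1b across the 40th percentile, to percentiles 44.9 to 45.1 against 37.5 to 38.5, close to the middle of the range. Leaving out any 1 of the 6 arrays gave 1.03 to 1.11 (limma adjusted p = 0.000961 to 0.00189).

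Tnf, an inflammatory cytokine made as a membrane-bound trimer, was at 11.72, 11.49 and 11.53 in Estradiol samples, against 10.81, 10.74 and 10.84 in Unstimulated samples. The groups did not overlap, and the lowest treated sample lay above the highest untreated one by more than either group's range. The difference was 0.78 ± 0.07 (SE, limma adjusted p = 0.00101), from means of 11.58 ± 0.12 and 10.80 ± 0.05 (SD, n = 3 each). Without any 1 array it was 0.71 to 0.83 (limma adjusted p = 0.00208 to 0.00823). When all 12 arrays shared 1 estimate of spread the same difference had an adjusted p of 0.239. The SD of Tnf was 0.54 in Pregnant and 0.86 in Control lavage, against 0.12 in Estradiol and 0.05 in Unstimulated cells.

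Il1a, the interleukin-1 form that is active without cleavage, was at 4.51, 4.26 and 4.32 in Estradiol and 4.21, 3.81 and 4.14 in Unstimulated samples. The groups did not overlap, but the values lie near the bottom of the arrays and the difference of 0.31 ± 0.12 did not pass (limma adjusted p = 0.158). Il18, an interleukin that acts on T and NK cells, was at 9.35, 9.48 and 9.76 in Estradiol and 9.25, 9.43 and 9.24 in Unstimulated samples, with a difference of 0.22 ± 0.11 and overlapping groups (limma adjusted p = 0.259). Il6 differed by 0.11 ± 0.08, Il10 by 0.13 ± 0.10 and Il12b by 0.00 ± 0.08, all with overlapping groups (limma adjusted p = 0.430, 0.459 and 0.997). All 3 were dim.

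On the restraining side no gene was called. Il1rn was at 12.58, 12.43 and 12.49 in Estradiol and 12.46, 12.47 and 12.43 in Unstimulated samples, a difference of 0.04 ± 0.05 (95% confidence interval -0.08 to 0.17, limma adjusted p = 0.653). Its other probe sets disagreed in sign. The next brightest differed by 0.22 ± 0.07 with groups that did not overlap, and the dimmest by -0.31 ± 0.21 (limma adjusted p = 0.109 and 0.399 in the fit of all single-gene probe sets). The dimmest was lowest on Estradiol replicate 2, at 9.58 against 10.47 and 10.17 on the other Estradiol arrays. Whether the RNA quality of that array took part was not tested. Tgfb1 was at 11.00, 11.34 and 11.24 in Estradiol and 11.43, 11.44 and 11.38 in Unstimulated samples. Each treated sample lay below each untreated one, yet the difference of -0.23 ± 0.09 did not pass (limma adjusted p = 0.155). In all, 4 of the 9 genes had groups that did not overlap, 3 higher and 1 lower, against 34.8% of all genes in either direction, 19.9% higher and 14.9% lower.

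**Figure D2:**
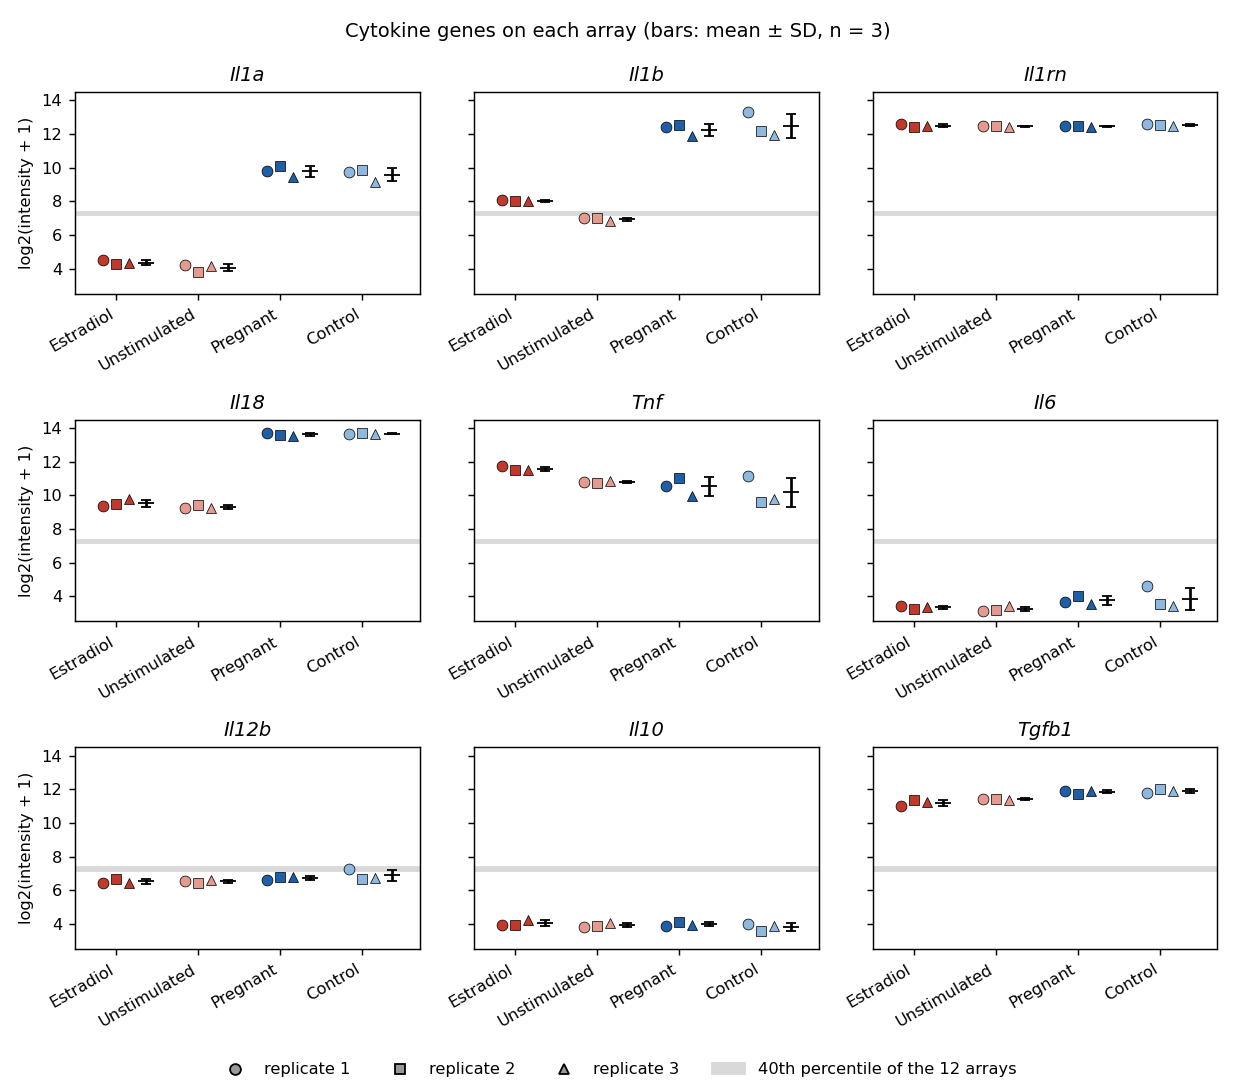
Level of each cytokine gene on each of the 12 arrays (y axis, log2(intensity + 1)), 1 panel per gene, with points shaped by replicate number, bars for mean ± SD (n = 3) and a grey band for the 40th percentile of the arrays. Il1b and Tnf are higher on the 3 Estradiol than on the 3 Unstimulated arrays, Il1a, Il1b and Il18 are high in both lavage groups, and Control replicate 1 is the highest Control array for Il1b, Tnf and Il6.

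Genes that release the cytokines, receive them or end their message were grouped into 8 lists. The estradiol count of every list stands against 6.75% of all genes called higher, 4.66% called lower and 11.4% in either direction. With lists this short the counts are a description only, and several lie near or below those shares. Of 10 measured genes of TNF release, receptors and adaptors, 3 rose and 0 fell, with a median of 0.16. Ltb, a membrane relative of TNF, differed by 0.53 ± 0.05, and Birc3, an ubiquitin ligase of the TNF receptor complex, by 0.38 ± 0.05 (limma adjusted p = 0.000893 and 0.00389). Adam17, the protease that sheds TNF from the cell surface, differed by 0.27 ± 0.05 (limma adjusted p = 0.0245). Its call ended without any 1 of the 3 Unstimulated arrays or Estradiol replicate 1 (adjusted p = 0.0539 to 0.104), and when its probe sets were averaged, at 0.17 (0.385). With all 12 arrays in one fit the call of Ltb ended too (adjusted p = 0.276).

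Of 10 measured genes of interleukin-1 and interleukin-18 processing, 1 rose and 1 fell, with a median of 0.00. Nlrp3, the sensor that builds the best known inflammasome, was at 10.91, 11.06 and 10.91 in Estradiol samples, against 9.88, 9.90 and 9.85 in Unstimulated samples. It rose by 1.08 ± 0.06, or 2.12-fold, nearly the same size as Il1b (limma adjusted p = 0.000174). The inflammasome adaptor gene Pycard was dim in the line, above the 40th percentile on 0 of the 6 arrays. It averaged 6.03 in Estradiol and 6.04 in Unstimulated cells (limma adjusted p = 0.990), against 11.19 in Control lavage. Whether the line can form this inflammasome was not tested. Casp1, the protease that cuts the Il1b and Il18 precursors, was slightly lower, at -0.21 ± 0.04 (limma adjusted p = 0.0314). That call ended without any 1 of the 3 Unstimulated arrays, Estradiol replicate 1 or Estradiol replicate 3 (adjusted p = 0.0646 to 0.131), and with arrays shifted to a common median (0.102).

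Of 12 measured interleukin-1 and interleukin-18 receptors and adaptors, 1 rose and 1 fell, with a median of 0.16. Il18rap, the signalling chain of the interleukin-18 receptor, differed by 0.32 ± 0.07, and Il1rl2, the receptor of interleukin-36, by -0.29 ± 0.07 (limma adjusted p = 0.0312 and 0.0485). Both were dim, and each call ended without any 1 of 5 arrays, Unstimulated replicates 1, 2 and 3 and Estradiol replicate 1 with Estradiol replicate 3 for Il18rap (adjusted p = 0.0725 to 0.114) or Estradiol replicate 2 for Il1rl2 (adjusted p = 0.0613 to 0.149). With all 12 arrays in one fit both calls ended too (adjusted p = 0.388 for Il18rap and 0.153 for Il1rl2), and that of Il1rl2 also with arrays shifted to a common median (0.109).

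Among 14 measured genes of the interleukin-6 family and its STAT3 signalling, 2 rose and 0 fell, with a median of 0.06. Lif, a cytokine that shares the receptor chain of interleukin-6, differed by 0.80 ± 0.12 and was dim (limma adjusted p = 0.00698). The mean of its probe sets gave 0.44 (adjusted p = 0.00974). The receptor kinase gene Jak2 differed by 0.24 ± 0.06 (limma adjusted p = 0.0480), a call that ended without any 1 of the 6 arrays (adjusted p = 0.0603 to 0.163) or with a common median (0.0657). Among 9 measured genes around interleukin-10, 3 rose and 0 fell, with a median of 0.00. The transcription factor Nfil3, a target of interleukin-10, differed by 0.54 ± 0.05 (limma adjusted p = 0.0012). Il10ra, the ligand-binding receptor chain, differed by 0.73 ± 0.12 (limma adjusted p = 0.0102). Averaging its probe sets gave 0.29 (adjusted p = 0.110). The repressor Etv3 differed by 0.26 ± 0.07 (limma adjusted p = 0.0468), and its call ended without any 1 of the 3 Unstimulated arrays, Estradiol replicate 1 or Estradiol replicate 2 (adjusted p = 0.0813 to 0.147). It also ended with the mean of the Etv3 probe sets, at 0.08 (adjusted p = 0.389).

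Among 9 measured genes of the interleukin-12 family, 1 rose and 0 fell, with a median of 0.00. It was Il23a, whose product joins that of Il12b to form interleukin-23. Il23a was at 6.20, 5.91 and 5.92 in Estradiol samples, against 4.72, 4.60 and 4.93 in Unstimulated samples, a difference of 1.26 ± 0.11 (limma adjusted p = 0.000908). It was dim on all 6 arrays, and its partner Il12b did not pass. Of 23 measured genes of TGF-beta activation, receptors and SMADs 1 rose and 0 fell, with a median of 0.04, and this was Itgav, an integrin chain that activates latent TGF-beta (0.35 ± 0.05, limma adjusted p = 0.00539).

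Of 9 measured genes of cytokine mRNA decay, 3 rose and 0 fell, with a median of 0.01. Zfp36l1 and Zfp36 encode proteins that bind AU-rich elements and shorten the life of messages such as that of Tnf, and Zc3h12a encodes an RNase that cuts the Il6 message among others. Zfp36l1 differed by 0.68 ± 0.07 and Zc3h12a by 0.36 ± 0.07 (limma adjusted p = 0.00149 and 0.0179). The mean of the Zfp36l1 probe sets gave 0.54 and barely passed (limma adjusted p = 0.0497). Zfp36 differed by 0.24 ± 0.06 (limma adjusted p = 0.0438). The call of Zc3h12a ended without Unstimulated replicate 2 (adjusted p = 0.0720) or replicate 3 (0.0759). That of Zfp36 ended without any 1 of the 3 Unstimulated arrays, Estradiol replicate 1 or Estradiol replicate 3 (adjusted p = 0.0765 to 0.153), and with all 12 arrays in one fit (0.484). Testing every probe set in place of 1 a gene ended the calls of Il1rl2, Jak2, Etv3 and Zfp36 (adjusted p = 0.0546 to 0.0592), and quantile normalization that of Jak2 (0.0510).

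**Figure D3:**
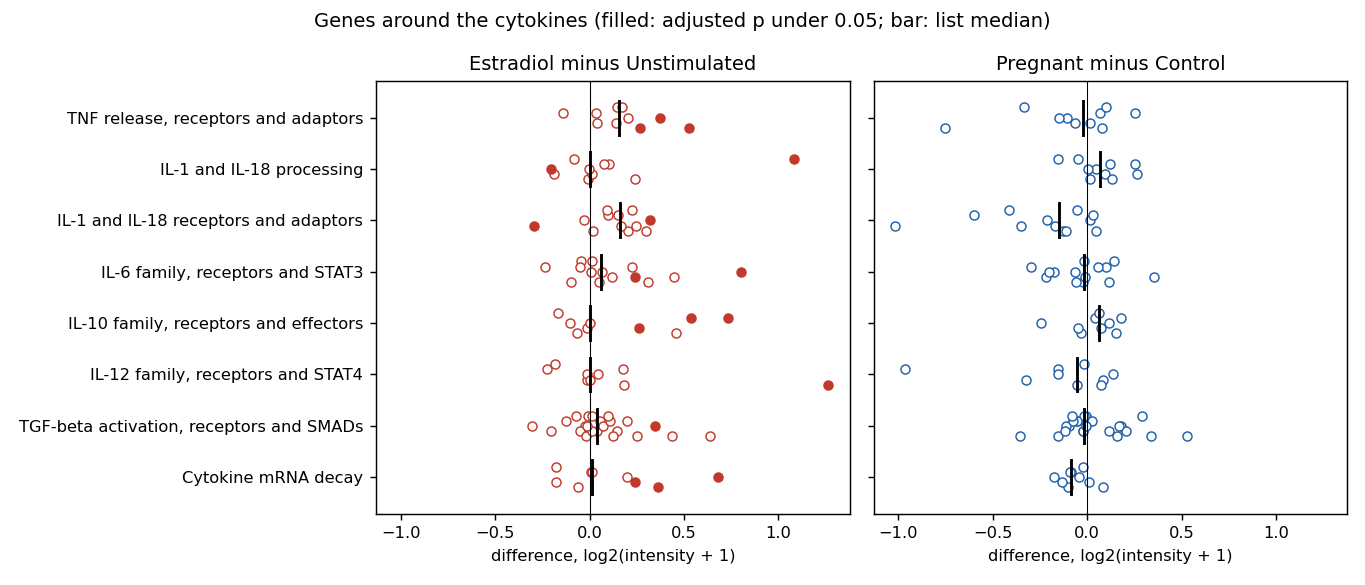
Difference of each gene of the 8 lists around the cytokines (x axis, log2(intensity + 1)), Estradiol minus Unstimulated at the left and Pregnant minus Control at the right, filled where the limma adjusted p was under 0.05 and with a bar at each list's median. Il23a (1.26) and Nlrp3 (1.08) are the points farthest to the right in the estradiol panel, and no point is filled in the pregnancy panel.

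Across the 12 arrays the genes whose levels ran most like Il1b were Gbp2, Slc7a8 and Fgr, with Pearson correlations of 0.99 each over the 12 arrays. For Tnf they were Clec4e (0.97), Dusp14 (0.96) and Osgin1 (0.95), also over 12 arrays. For Il1b the points share the gap between cell line and lavage, which dominates the correlation.

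In lavage cells, none of the 9 cytokine genes passed between pregnant and control mice, and the groups overlapped for all 9. By limma 0 of 9 genes were called and 0 had an unadjusted p under 0.05, while over all genes 0% were called with 1163 of 12393 at an unadjusted p below 0.05. Non-overlapping groups were seen for 15.7% of all genes, 10.7% higher and 4.99% lower. The 9 genes differed in how tightly this could be measured, and the widths of the confidence intervals separated them.

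Il18, Tgfb1 and Il1rn were steady. Il18 was at 13.69, 13.61 and 13.55 in Pregnant and 13.62, 13.69 and 13.66 in Control samples, with a difference of -0.04 (95% confidence interval -0.19 to 0.12, limma adjusted p = 0.878). Tgfb1 was at 11.91, 11.74 and 11.91 in Pregnant and 11.78, 11.99 and 11.90 in Control samples, with a difference of -0.04 (95% confidence interval -0.24 to 0.16, limma adjusted p = 0.915). Il1rn differed by -0.06 (95% confidence interval -0.20 to 0.09, limma adjusted p = 0.802), and its other probe sets by -0.07 and -0.33 (limma adjusted p = 0.845 and 0.653 in the fit of all single-gene probe sets). For these 3 genes the intervals of the main probe sets exclude changes beyond 0.24 on the log2 scale.

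Il1b and Tnf were not steady. Il1b was at 12.40, 12.52 and 11.86 in Pregnant samples, against 13.31, 12.18 and 11.95 in Control samples. The Control samples spanned more than the Pregnant ones and reached both above and within them. The difference was -0.22 ± 0.37 (95% confidence interval -1.10 to 0.66, limma adjusted p = 0.874), and it became 0.20 without Control replicate 1 (adjusted p = 0.812). Tnf was at 10.57, 11.03 and 9.96 in Pregnant samples, against 11.16, 9.58 and 9.78 in Control samples. Its difference was 0.35 ± 0.46 (95% confidence interval -0.75 to 1.45, limma adjusted p = 0.833), and 0.84 without Control replicate 1 (adjusted p = 0.541). The range among Control samples alone was thus larger than the estradiol difference in the cell line for both genes.

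Il1a was at 9.82, 10.10 and 9.46 in Pregnant and 9.73, 9.86 and 9.17 in Control samples, a difference of 0.20 ± 0.23 (limma adjusted p = 0.800) that became -0.01 without Control replicate 3 (0.998). Il6 was at 3.67, 4.04 and 3.56 in Pregnant and 4.61, 3.53 and 3.41 in Control samples (-0.10 ± 0.32, limma adjusted p = 0.947), and Il10 differed by 0.14 ± 0.13 (limma adjusted p = 0.762). Il12b differed by -0.15 ± 0.16 (limma adjusted p = 0.795). Without Control replicate 1 the difference turned positive for Il6 (0.28, adjusted p = 0.633) and for Il12b (0.03, adjusted p = 0.932). Its dimmer probe set was at 4.46, 5.46 and 4.62 in Pregnant and 6.63, 5.68 and 5.24 in Control samples, a difference of -1.01 ± 0.40 with overlapping groups (unadjusted p = 0.0429 and adjusted p = 0.498 by limma in the fit of all single-gene probe sets).

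**Figure D4:**
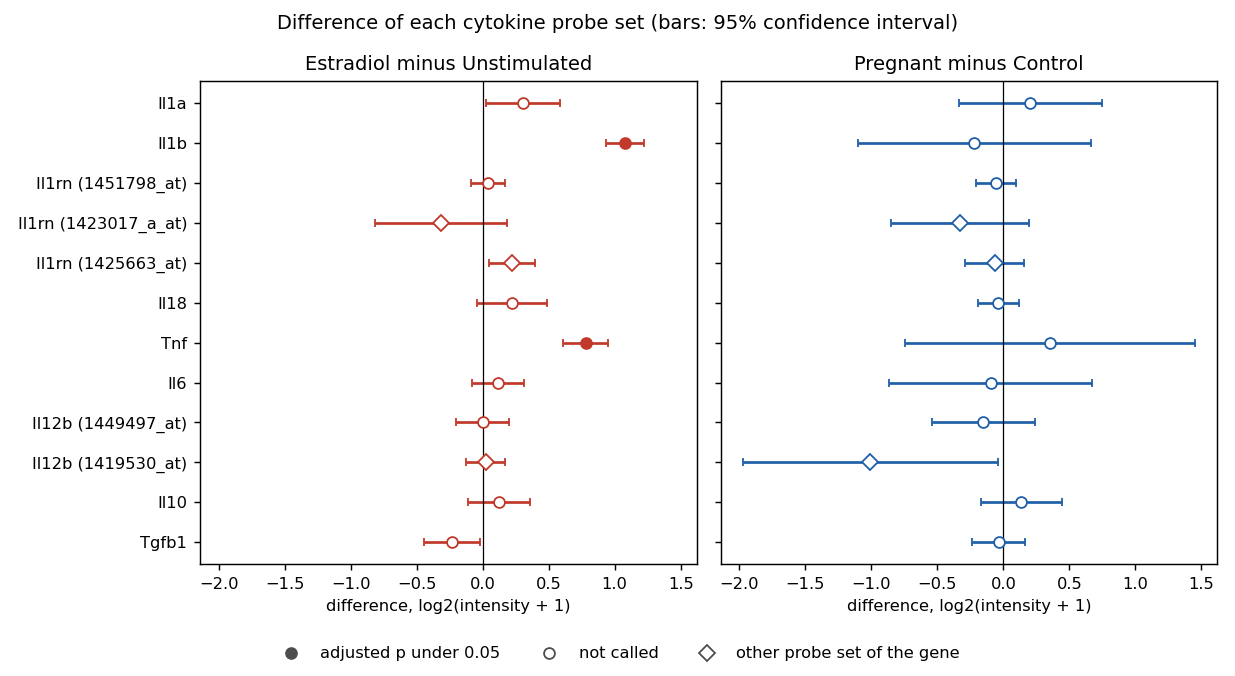
Difference of each of the 12 cytokine probe sets (x axis, log2(intensity + 1)) with its 95% confidence interval, Estradiol minus Unstimulated at the left and Pregnant minus Control at the right, filled where the limma adjusted p was under 0.05. Il1b (1.08) and Tnf (0.78) are the filled points, both in the estradiol panel, and the intervals of Il1b and Tnf in the pregnancy panel span 0.

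Several members were high on the same lavage arrays. Control replicate 1 was the highest of the 6 arrays for Il1b, Tnf, Il6 and both Il12b probe sets, and Pregnant replicate 2 was the second highest for Il1b, Tnf and Il6. Il1rn, on the restraining side, was also highest on Control replicate 1 with all 3 probe sets (12.58, 11.15 and 10.75). Il1a did not share this order, with 10.10 on Pregnant replicate 2 and 9.73 on Control replicate 1, where Control replicate 2 read 9.86. The summed intensity of 10 measured neutrophil markers had the same 2 arrays on top, at 12420 on Pregnant replicate 2 and 22140 on Control replicate 1. The remaining arrays read 9580 and 7675 in Pregnant and 8113 and 7635 in Control samples. The brightest of the list on Control replicate 1 were S100a9 and S100a8, at 13.58 and 12.28. S100a9, a calcium-binding protein abundant in neutrophils, was at 11.35, 11.98 and 10.32 in Pregnant and 13.58, 11.25 and 10.83 in Control samples, replicates 1 to 3 in each.

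Not all neutrophil markers followed this order. Mmp8, a collagenase of neutrophil granules, was at 10.04, 9.75 and 10.15 in Pregnant and 10.14, 10.44 and 10.56 in Control samples, so that Pregnant replicate 2 was the lowest of the 6 arrays and Control replicate 1 the lowest of its group. Csf3r, the receptor of granulocyte colony-stimulating factor, was at 10.00, 10.02 and 9.82 in Pregnant and 10.51, 10.19 and 10.20 in Control samples. Camp, Ngp, Elane and Cxcr2 stayed below the 40th percentile on all 12 arrays, although dim Cxcr2 was highest on Control replicate 1 (7.24) and next on Pregnant replicate 2 (6.42). Over the whole list the summed level ranged from 7675 to 12420 in Pregnant and from 7635 to 22140 in Control samples, and from 1606 to 1622 in Estradiol and 796.8 to 850.4 in Unstimulated cells, where S100a8 and Mmp9 were called higher. Summed airway and alveolar epithelial markers also had these arrays on top, at 29100 on Pregnant replicate 2 and 25080 on Control replicate 1, against 16660 to 22940 on the other Pregnant arrays and 14540 to 19260 on the other Control arrays. Summed dendritic cell and monocyte markers had them on top as well, at 955, 1432 and 730.3 in Pregnant and 2331, 1343 and 1246 in Control samples. Summed erythroid markers were highest on Pregnant replicate 2, at 2943, and read 255.7 to 898.5 on the other lavage arrays. The part of these cells in the cytokine levels was not tested. Il18 did not follow, with 13.61 on Pregnant replicate 2 and 13.62 on Control replicate 1 inside the range of the other arrays, and pan-macrophage markers summed to 75580 to 76940 in Pregnant and 76390 to 79950 in Control samples.

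**Figure D5:**
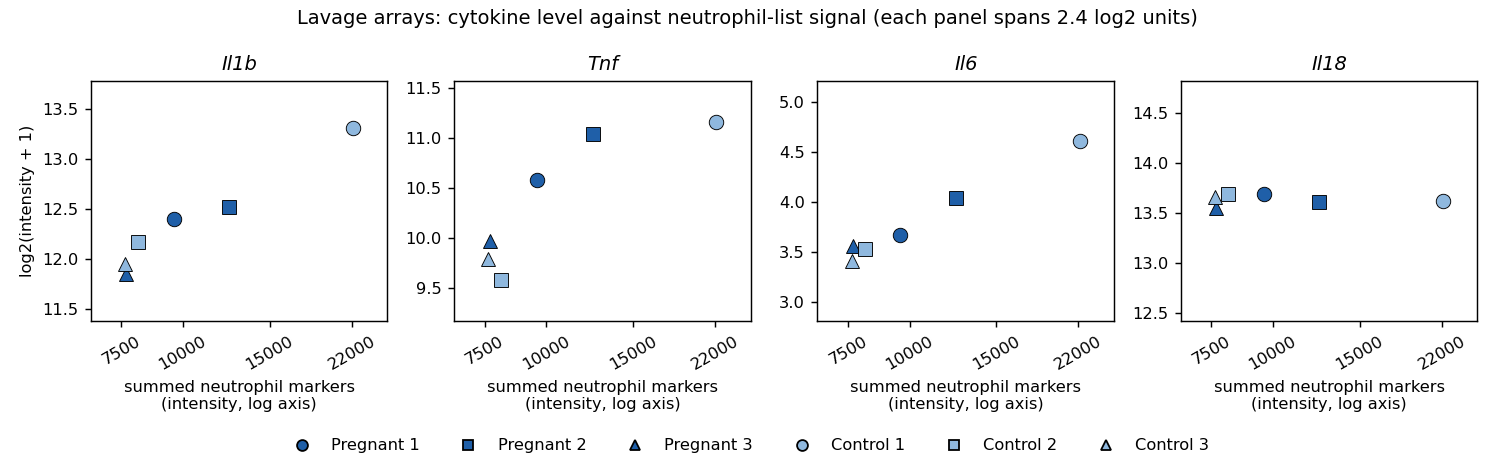
Level of Il1b, Tnf, Il6 and Il18 on the 6 lavage arrays (y axis, log2(intensity + 1), each panel spanning the same range) against the summed intensity of the neutrophil markers on the same array (x axis, log scale). Control replicate 1 (22140) and Pregnant replicate 2 (12420) are farthest right and highest for Il1b, Tnf and Il6, whereas Il18 lies between 13.55 and 13.69 throughout. The neutrophil marker Mmp8 did not follow this order. Summed epithelial markers and summed dendritic cell and monocyte markers had the same arrays on top.

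Of the genes around the cytokines, limma called 0 in pregnancy in each of the 8 lists. Those with the smallest unadjusted p in their list, where it was under 0.05, were Panx1, a channel that releases ATP (0.26 ± 0.07), Il18r1, the binding chain of the interleukin-18 receptor (-1.02 ± 0.30), Ctf1, an interleukin-6 family cytokine (0.36 ± 0.14), the interferon response factor Irf1 (-0.32 ± 0.06), the TGF-beta co-receptor Eng (0.53 ± 0.08) and Zfp36l1 (-0.17 ± 0.06). Il18r1, Ctf1 and Eng were dim. Their limma adjusted p-values were 0.454, 0.458, 0.499, 0.395, 0.395 and 0.483. Irf1 was at 11.28, 11.26 and 11.23 in Pregnant samples, against 11.62, 11.58 and 11.55 in Control samples, so that all Pregnant values lay below all Control values. Groups did not overlap for the other genes named here either, against 15.7% of all genes in either direction. That separation came largely with the choice of genes by smallest p. None of these genes passed over all genes.

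Between the sources, 4 of the 9 genes were higher in Control lavage cells than in Unstimulated RAW264.7 cells and 0 were lower at a limma adjusted p under 0.05, against 27.9% of all genes higher, 34% lower and 61.9% in either direction. Groups did not overlap for 6 of the 9, all higher in lavage, against 69.9% of all genes, 30.8% higher and 39.1% lower. Il1b averaged 12.48 ± 0.73 in Control lavage and 6.94 ± 0.09 in Unstimulated cells (SD, n = 3 each), a difference of 5.54 ± 0.34, or 46.6-fold (limma adjusted p = 1.66e-05). Il1a, its neighbour on the chromosome, averaged 9.59 ± 0.37 in Control lavage and 4.05 ± 0.22 in Unstimulated cells, a difference of 5.53 ± 0.20, or 46.2-fold against a value near the bottom of the arrays (limma adjusted p = 1.53e-06). Il18 averaged 13.65 ± 0.04 in Control lavage and 9.31 ± 0.11 in Unstimulated cells, which is 20.3-fold higher (limma adjusted p = 4.44e-08). Tgfb1 was 1.39-fold higher in Control lavage, by 0.47 ± 0.06 (limma adjusted p = 0.000779).

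The antagonist did not follow its agonists. Il1rn averaged 12.52 ± 0.07 in Control lavage and 12.45 ± 0.02 in Unstimulated cells, a difference of 0.06 (95% confidence interval -0.06 to 0.19, limma adjusted p = 0.313). Its next brightest probe set was higher in Control lavage by 0.29 ± 0.08 (limma adjusted p = 0.0179 in the fit of all single-gene probe sets). Tnf averaged 10.17 ± 0.86 in Control lavage and 10.80 ± 0.05 in Unstimulated cells, a difference of -0.62 ± 0.40 that did not pass (limma adjusted p = 0.215). Without Control replicate 1 it was -1.12 (limma adjusted p = 6.95e-05), so that 1 array decided this call. Il6, Il10 and Il12b differed by 0.62 ± 0.31, -0.08 ± 0.13 and 0.36 ± 0.16 and did not pass (limma adjusted p = 0.129, 0.581 and 0.0893), while the dimmer Il12b probe set was higher in Control lavage by 1.40 ± 0.33 (limma adjusted p = 0.00921 in the fit of all single-gene probe sets). Without Control replicate 1 the differences of Il6 and Il12b were 0.24 and 0.18 (adjusted p = 0.0714 and 0.0629). Cell line and lavage also differ in culture, handling, sex and the other cells present, and these cannot be told apart from the source. All 3 measured Y-linked genes were called lower in Control lavage than in the Unstimulated line, with a median of -5.68. Between Pregnant and Control lavage 0 of the 3 were called, with a median of -0.07.

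Over the 4 groups the order of levels therefore differed by gene. For Il1b it was Control, Pregnant, Estradiol and Unstimulated from high to low, where the lavage groups overlapped. For Tnf it was Estradiol, Unstimulated, Pregnant and Control, where Control spanned from below to above the Unstimulated range. For Il18, Il1a and Tgfb1 both lavage groups stood above both cell-line groups. For Il10 and the main probe set of Il1rn the 4 groups overlapped. On the next brightest Il1rn probe set the Unstimulated arrays (10.66 to 10.72) lay below all arrays of the other groups.

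The change in pregnancy was set against the change with estradiol in 1 fit of all 12 arrays, as pregnancy minus estradiol. For Il1b this difference was -1.30 ± 0.41 and for Tnf -0.43 ± 0.51 (limma adjusted p = 0.111 and 0.703). Without Control replicate 1 it was -0.88 for Il1b and turned to 0.06 for Tnf (limma adjusted p = 0.0542 and 0.940). The same array turned the sign for Il6, which was -0.21 with it and 0.17 without it, and for Il12b, which was -0.15 with it and 0.03 without it. By limma 0 of the 9 genes passed and 1 had an unadjusted p under 0.05, against 4.43% of all genes called, 2.21% higher and 2.22% lower. An estradiol response of Il1b or Tnf in cells of the line is thus not shown to differ from the pregnancy change in lavage cells.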

How the data were processed

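Intensity values, deposited by the authors as 1 linear value per probe set and array, came from RMA, per the submitters' processing notes, with no version given in the sources used here. Of 22690 probe sets, 20380 named 1 gene, 691 several and 1555 none, and 64 were array controls. Symbols came from the platform annotation. No listed symbol needed replacing by the current gene table. For each of 12393 genes the probe set with the highest mean was kept.

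Levels were computed as log2(value + 1). The planned design allowed for values already on a log2 scale, and the deposited ones were linear. Changes of dim genes are slightly understated. Comparisons were fitted with limma 3.58.1 (lmFit, eBayes) under R 4.3.3 on the 6 arrays compared, or all 12 for the difference of the changes, two-sided, with Benjamini-Hochberg adjustment over all 12393 genes and a threshold of 0.05. Other probe sets of a gene were tested in a fit of all 20380. Dim means above the array's 40th percentile on fewer than 3 arrays compared. Fits were also run on simulated data, with known changes and independent normal spread for each gene. Such data hold no single array that deviates in several genes together. Those runs therefore do not bear on the influence of Control replicate 1. The number of arrays limits the precision, and the table holds no detection calls.

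The members and lists were chosen with earlier results of these data known. Named list genes were up to 3 called ones a list by smallest p with estradiol and, in pregnancy, the gene with the smallest p where it was under 0.05. Pycard was named outside this rule, for its low level in the cell line. The genes most alike were the 3 highest correlations for each called member. Alternatives were quantile normalization, a common median, a filter on dim genes, the mean of probe sets, all probe sets, no pseudocount, an intensity trend with a robust prior, weights per array, a single fit of all 12 arrays, a threshold of 0.01 and each array left out. Figures and motif matches used matplotlib 3.10.9 and pandas 2.3.3 under Python 3.11.15. Il10 had no start-site window in the table used.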

Additional observations from a re-analysis of the deposited data

Results flagged for a closer look

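Of the genes named around the cytokines, 6 had a change in pregnancy that differed from the change with estradiol by limma's test of the difference itself, with all 12 arrays in one fit. Nlrp3 changed by -0.05 in pregnancy and 1.08 with estradiol, a difference of -1.13 ± 0.19 (limma adjusted p = 0.00974). Il23a changed by 0.07 and 1.26, a difference of -1.19 ± 0.20 (limma adjusted p = 0.00938). It was dim, above the 40th percentile on 0 of the 12 arrays. Zfp36l1 changed by -0.17 and 0.68, a difference of -0.86 ± 0.09 (limma adjusted p = 0.000473). Averaging the Zfp36l1 probe sets lowered the estradiol change to 0.54 (limma adjusted p = 0.0497). Il10ra changed by 0.04 and 0.73, a difference of -0.69 ± 0.16 (limma adjusted p = 0.0384). Its estradiol call ended when its probe sets were averaged, at 0.29 (limma adjusted p = 0.110). The differences of Birc3 and Itgav were -0.48 ± 0.10 and -0.44 ± 0.08 (limma adjusted p = 0.0235 and 0.00905). In each case the gene had been named for a positive estradiol change that passed, while 0% of all genes passed in pregnancy. That pattern therefore came largely with the choice of genes and is a description only. Over all genes 4.43% passed this test, 2.21% higher and 2.22% lower. The processing alternatives were not run for the differences of these named genes. None of the 9 cytokine genes passed this test.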

How the results depend on the processing

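With estradiol, Il1b was called under all 16 alternatives and Tnf under 15, the exception being all 12 arrays in one fit, where 1 of the 9 genes was called. Il1b lay above the 40th percentile on 3 Estradiol and 0 Unstimulated arrays. It thus passed the filter on dim genes only through the group where it was high, and that setting adds no separate support. With array weights 5 were called, Il10 (0.28), Il18 (0.42) and Tgfb1 (-0.19) among them, but then so were 4010 of all genes against 1414. A threshold of 0.01 left 558 genes, and leaving out 1 array gave 637 to 1730. In pregnancy 0 of the 9 genes were called under any alternative, while over all genes the count of 0 became 18 with all 12 arrays, 1 with the filter on dim genes and 0 to 2 without 1 array. The difference of the 2 changes was called for 1 of the 9 genes, Il1b (-1.02), with array weights. Between the sources 4 or 5 genes were called under each alternative. The counts for the 9 genes without any 1 array were 2 to 2 with estradiol and 0 to 0 in pregnancy. No alternative reversed a called value. No paired analysis was possible because the replicate numbers follow deposit order only. Signal over background limits Il6, Il10, Il12b and, in the cell line, Il1a, which the filter on dim genes removed from the estradiol comparison. It also limits Il1b in Unstimulated cells.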
